A study of Homo sapiens with 12 samples.

Results

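Genes of the coiled-coil domain containing (CCDC) series were examined in U87 cells, a human glioblastoma cell line. They were taken as the transcript clusters of the array whose only annotated gene symbol was CCDC followed by a number and, in some genes, a letter, with 1 cluster per gene, the one with the highest mean over the 12 arrays. This gave 113 genes, out of 18414 genes named by clusters with 1 gene and 21214 tested clusters in all. Another 9 clusters, shared between a CCDC gene and other genes, were left out. Affymetrix Human Gene 1.0 ST arrays were used to measure RNA after 72 h with 3α-THP (allopregnanolone, 10 nM), P4 (progesterone, 10 nM), F (finasteride, 100 nM) or V, the DMSO vehicle, on 3 arrays each. For V the study's methods and the sample characteristics gave 0.1% DMSO, and the treatment protocol in the labels 10%. All cells were kept in phenol red-free medium with charcoal-stripped serum from the day before treatment, and all came from a single line. 3α-THP is a metabolite of P4 reduced at the 5α and 3α positions, and F inhibits 5α-reductase, the enzyme of the first of these steps. The study set out to find which genes respond to each of them.

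A coiled coil is a bundle of α-helices wound around each other, held together by a repeating pattern of hydrophobic residues. It serves as a rod, a spacer or a binding surface in proteins of the cytoskeleton, the centrosome and the membrane tethers of the Golgi. The name CCDC was given to genes predicted to encode such a stretch before their function was known. CCDC genes are therefore not a family by descent, and many have been renamed once a role was found. Their roles range from actin binding and vesicle traffic to centriolar satellites, which are granules that carry proteins to the centrosome, and to the axoneme of motile cilia.

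The values are log2 expression values of single arrays, and a difference of 1 is a doubling. A gene is said to have risen or fallen where the fold was over 1.5 with an unadjusted p under 0.05 in limma, written below as the threshold. These are the study's limits on the fold and the p, but the study took its p from a one-way analysis of variance, which is given here as an alternative. The adjusted p is the Benjamini-Hochberg value over all 21214 clusters. Since probes differ in brightness, levels are compared between treatments and not between genes. The mean of a CCDC gene over the 12 arrays lay between 2.19 (CCDC172) and 10.05 (CCDC91) with a median of 5.84, and 38 of the 113 genes lay under 5. All 113 entered the tests, since no filter on low values was applied. The medians of the tested clusters were between 6.35 and 6.40 on every array. Of the markers chosen for the line, VIM, CD44, FN1 and CAV1 lay at or above the 99.1 percentile of the clusters with 1 gene. NES, chosen with them, lay at 41.9. The glial lineage markers GFAP, S100B, OLIG2 and SOX2 lay between 11.2 and 46.2. Of the markers of other cell types, PTPRC, a leukocyte marker, lay at 3.86, EPCAM at 10.1 and PECAM1 at 14.2. CD14 lay at 29.4 and RBFOX3 at 42.4, within the range of the glial lineage markers. None of the markers of any cell type passed the threshold with a steroid against V.

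With 3α-THP, 5 of the 113 CCDC genes rose against V and 0 fell. They were CCDC88A (log2 fold change 1.36), CCDC186 (1.09), CCDC18 (0.72), CCDC82 (0.66) and CCDC91 (0.61). This is 4.42% of the CCDC genes, beside 0.679% of all tested clusters past the threshold in either direction and 0.627% that rose. The CCDC genes were chosen with earlier results of these data known, so this share and those below are not independent evidence. With F, 2 genes rose (1.77%), CCDC88A and CCDC186, beside 0.396% of all clusters past the threshold and 0.382% that rose. With P4, 0 of the 113 passed the threshold in limma or in the one-way analysis of variance of the methods, beside 0.0236% of all clusters. The 3 comparisons share the V arrays. None of the 113 genes reached an adjusted p under 0.05 in limma, where the lowest were 0.376 with 3α-THP, 0.833 with F and 1.00 with P4. At an unadjusted p under 0.05 there were 11 genes with 3α-THP, beside 7.34% of all clusters, 9 with F, beside 4.69%, and 5 with P4, beside 1.82%. Leaving out 3α-THP replicate 3 or V replicate 1 gave a count of 3 with 3α-THP. Leaving out F replicate 2 or V replicate 2 gave 4 with F, and leaving out V replicate 2 gave 1, CCDC186, with P4.

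**Figure D1:**
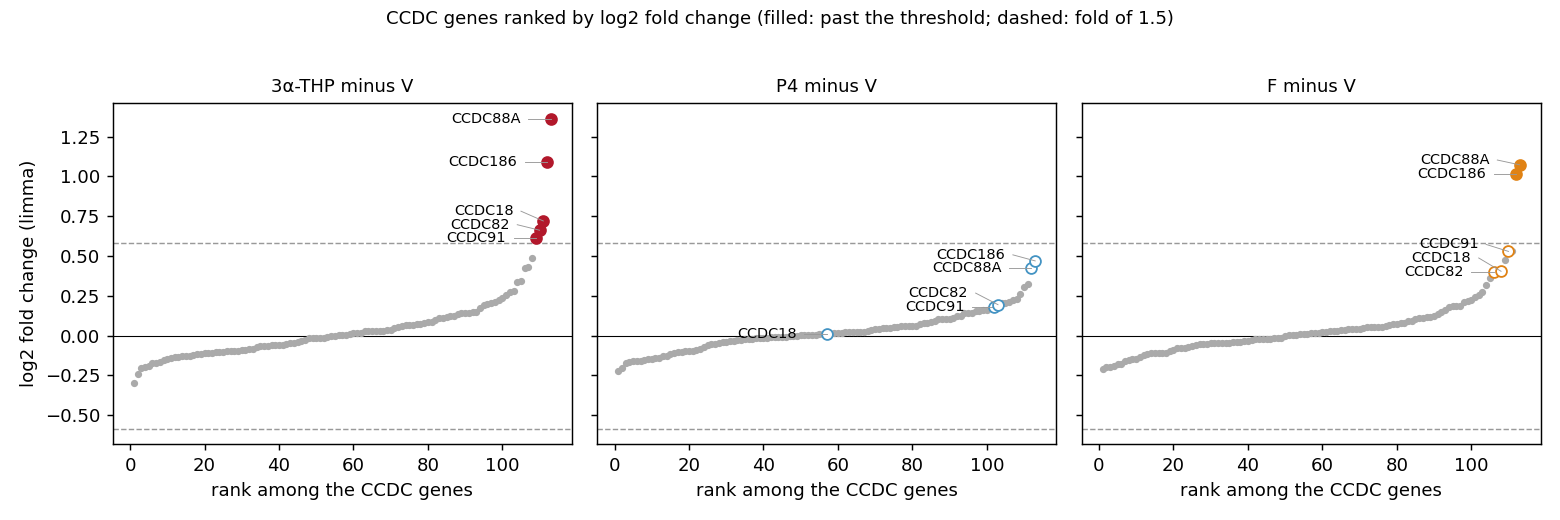
Log2 fold change against V (vertical axis) of the 113 CCDC genes, ranked from lowest to highest (horizontal axis), for 3α-THP, P4 and F. Labelled circles mark the genes risen with 3α-THP, filled where the gene passed the threshold in that panel, and dashed lines mark a fold of 1.5. CCDC88A and CCDC186 hold the top ranks in all 3 panels, at 1.36 and 1.09 with 3α-THP, 0.42 and 0.47 with P4, and 1.07 and 1.02 with F.

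The median log2 fold change of the 113 genes was 0.0022 with 3α-THP, beside -0.027 over all tested clusters. It was 0.0100 with P4, beside -0.013, and 0.016 with F, beside -0.021. The sign was positive in 58 genes with 3α-THP (51.3%), beside 41.1% of all clusters. It was positive in 64 with P4 (56.6%), beside 43.9%, and in 63 with F (55.8%), beside 41.8%. In 14 genes every 3α-THP array lay above every V array (4.02% of all clusters), and in 6 every one lay below (7.28%). With F these counts were 9 (3.60%) and 6 (5.51%), and with P4 6 (1.97%) and 5 (3.47%).

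The sequences just before the start of the leading genes are shown because these genes moved together over the arrays, and because the study asked about factors that bind cAMP response elements and CCAAT sequences. RefSeq's table of promoters for GRCh38.p14 held 99 of the 113 genes, and CCDC88A, CCDC186, CCDC18 and CCDC82 are among them. Each run gives the 250 bases upstream of the start on the strand of the gene, 5′ to 3′, and capitals mark TGACG (the short form of the cAMP response element) and CCAAT on either strand, the reverse being CGTCA and ATTGG.
CCDC88A: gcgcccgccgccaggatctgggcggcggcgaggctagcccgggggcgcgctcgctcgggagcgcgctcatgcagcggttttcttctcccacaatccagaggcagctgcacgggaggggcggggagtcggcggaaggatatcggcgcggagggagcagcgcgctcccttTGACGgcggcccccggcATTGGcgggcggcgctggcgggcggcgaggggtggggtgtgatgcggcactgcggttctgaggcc
CCDC186: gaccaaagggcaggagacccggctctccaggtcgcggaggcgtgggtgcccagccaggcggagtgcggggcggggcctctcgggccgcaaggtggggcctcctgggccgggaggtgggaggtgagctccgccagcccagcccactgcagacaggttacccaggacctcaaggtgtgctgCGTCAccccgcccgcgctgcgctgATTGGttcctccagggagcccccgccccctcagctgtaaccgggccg
CCDC18: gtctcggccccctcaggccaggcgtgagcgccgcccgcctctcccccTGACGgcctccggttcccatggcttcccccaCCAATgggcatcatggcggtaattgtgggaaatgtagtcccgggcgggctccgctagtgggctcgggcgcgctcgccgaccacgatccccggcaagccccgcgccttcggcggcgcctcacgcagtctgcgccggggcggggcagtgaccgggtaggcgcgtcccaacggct
CCDC82: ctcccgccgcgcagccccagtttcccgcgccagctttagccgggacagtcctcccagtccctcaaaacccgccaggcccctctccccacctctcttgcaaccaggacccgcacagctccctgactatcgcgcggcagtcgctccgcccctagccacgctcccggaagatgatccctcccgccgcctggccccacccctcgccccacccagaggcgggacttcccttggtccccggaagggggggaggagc
These lie at chr2:55419857-55420106 (minus strand), chr10:114174221-114174470 (minus strand), chr1:93180466-93180715 (plus strand) and chr11:96389913-96390162 (minus strand). CCDC88A, CCDC186 and CCDC18 each held 1 TGACG and 1 CCAAT, and the first base of TGACG stood 82, 71 and 203 bases before the start. The first base of CCAAT stood 65, 47 and 172 bases before it. The stretch of CCDC82 held none of these letters. TGACG was found in 29 of the 99 CCDC genes (29.3%) and in 21.2% of all 35116 stretches of the same length, and CCAAT in 33 (33.3%) and 32.0%. The whole cAMP response element, TGACGTCA, which contains TGACG, was found in 3 of the 99, CCDC124, CCDC47 and CCDC86 (3.03%), and in 1.65% of all stretches. The 4 printed stretches had a GC content of 71.2% to 74.8%, beside a median of 63.2% in the 99 genes and 58.0% in all. These are matches of letters and not measured sites.

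CCDC88A encodes girdin, an actin-binding protein that is a substrate of Akt and a modulator of G proteins, known for its part in cell migration. It read 7.96, 8.43 and 8.69 on the 3α-THP arrays, 7.10, 7.22 and 7.94 on the P4 arrays, 8.30, 7.36 and 8.55 on the F arrays, and 6.80, 7.36 and 6.83 on the V arrays. All 3α-THP arrays lay above all V arrays, while F replicate 2 stood level with V replicate 2, the highest of the V arrays. The rise with 3α-THP was 2.57-fold (log2 1.36, SE 0.30, 95% interval 0.71 to 2.02, limma, adjusted p = 0.376). The rise with F was 2.10-fold (log2 1.07, 95% interval 0.42 to 1.73, limma, adjusted p = 0.852). Taken within a replicate number, CCDC88A was higher with 3α-THP than V by 1.16, 1.06 and 1.87, while F and V stood level at number 2 and F was higher by 1.72 at number 3. With P4 the difference from V was 0.42 (95% interval -0.23 to 1.08), a range that holds both no change and a doubling.

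CCDC88A has relatives by descent, CCDC88B and CCDC88C, which share its overall build. CCDC88C, known as Daple, acts in Wnt signalling. Neither passed the threshold. CCDC88B had a log2 fold change of 0.08 with 3α-THP, -0.01 with P4 and -0.07 with F. CCDC88C read 6.02, 5.87 and 5.17 on the 3α-THP arrays, against 6.14, 5.96 and 5.84 on the V arrays, and its log2 fold change of -0.30 was the lowest of the 113 genes. That low mean came from 3α-THP replicate 3, and the other 2 arrays of 3α-THP lay within the range of V. A second, dimmer cluster of CCDC88C (mean 3.04) had log2 fold changes of 0.06 with 3α-THP, 0.10 with P4 and -0.03 with F.

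CCDC186 is needed, in worms and in rodent cells, for the maturation of dense-core vesicles, where it works with the small GTPase RAB2. It read 7.69, 7.58 and 7.81 on the 3α-THP arrays, 6.84, 6.83 and 7.54 on the P4 arrays, 7.83, 7.09 and 7.95 on the F arrays, and 6.33, 7.04 and 6.43 on the V arrays. The 3α-THP arrays lay close together and above all of V, and the F arrays were also above all of V, F replicate 2 by little. The rise was 2.13-fold with 3α-THP (log2 1.09, SE 0.25, 95% interval 0.56 to 1.63, limma, adjusted p = 0.376) and 2.03-fold with F (log2 1.02, 95% interval 0.48 to 1.55, limma, adjusted p = 0.833). With P4 it was 0.47 (95% interval -0.07 to 1.01). P4 replicate 3 stood close to the 3α-THP arrays and the other P4 arrays were within the range of V.

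CCDC91 encodes a partner of the GGA adaptors, which sort cargo at the trans-Golgi network. The study singled it out on these same arrays, so its rise here is not independent evidence. It read 9.98, 10.44 and 10.58 on the 3α-THP arrays, 9.56, 9.63 and 10.52 on the P4 arrays, 10.01, 10.17 and 10.58 on the F arrays, and 9.55, 9.73 and 9.89 on the V arrays. Both the 3α-THP and the F arrays lay above all of V, and P4 replicate 3 was higher than all of V. The rise of 0.61 with 3α-THP (95% interval 0.09 to 1.13, limma, adjusted p = 0.614) lay just past a fold of 1.5. It was 0.49 on leaving out 3α-THP replicate 3, 0.56 on leaving out 3α-THP replicate 2 and 0.52 on leaving out V replicate 1, each short of the threshold, and 0.56 with the arrays of number 2 left out (unadjusted p = 0.0923 in limma). In the one-way analysis of variance over all clusters its unadjusted p was 0.0679, so that 4 CCDC genes passed there with 3α-THP. With F the log2 fold change was 0.53 (95% interval 0.01 to 1.05) and with P4 0.18 (-0.34 to 0.70).

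Of 5 CCDC genes with roles in Golgi, endosome and vesicle traffic, CCDC186 and CCDC91 rose with 3α-THP and CCDC186 rose with F. The other 3 were CCDC47, a chaperone of membrane protein insertion at the endoplasmic reticulum, and CCDC22 and CCDC93, subunits of the CCC complex that recycles endosomal cargo. Their log2 fold changes with 3α-THP were 0.08, -0.02 and 0.03. The median of the 5 was 0.08 with 3α-THP, 0.06 with P4 and 0.04 with F.

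CCDC18 encodes a protein of the centriolar satellites. It read 4.98, 5.79 and 5.61 on the 3α-THP arrays, 4.75, 4.71 and 4.79 on the P4 arrays, 5.29, 4.76 and 5.38 on the F arrays, and 4.52, 4.85 and 4.84 on the V arrays. Every 3α-THP array lay above every V array, replicate 1 by little, and the P4 arrays lay within the range of V. The rise with 3α-THP was 1.65-fold (log2 0.72, SE 0.20, 95% interval 0.29 to 1.15, limma, adjusted p = 0.415), and 0.56 on the log2 scale, short of the threshold, without 3α-THP replicate 2. With P4 the log2 fold change of CCDC18 was 0.01 (95% interval -0.42 to 0.44), and with F it was 0.40 (-0.02 to 0.83).

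CCDC18 was 1 of 16 CCDC genes of the centrosome, centriole or satellites, and the only one of them past the threshold against V. Their log2 fold changes with 3α-THP ran from -0.13 to 0.72 with a median of 0.12. Of the 16, 11 were positive, beside 41.1% of all clusters. With P4 they ran from -0.16 to 0.20 (median -0.0041), with 7 positive, beside 43.9%. With F they ran from -0.14 to 0.53 (median 0.05), with 12 positive, beside 41.8%. The genes described next were all higher than V with 3α-THP and F, and those lower than V are not given singly. CCDC102B was named after its value was seen. CCDC14, a satellite protein that holds back centriole duplication, read 8.19, 8.15 and 8.52 on the 3α-THP arrays, 8.33, 8.02 and 8.63 on the F arrays, and 7.72, 7.93 and 7.75 on the V arrays. Neither treatment overlapped V, and the log2 fold changes were 0.49 with 3α-THP (unadjusted p = 0.0136 in limma) and 0.53 with F (unadjusted p = 0.00864 in limma), both short of the fold. CCDC112, also a satellite protein, had 0.43 with 3α-THP, 0.05 with P4 and 0.40 with F. CCDC102B, a protein of the linker between centrosomes, had 0.34, 0.06 and 0.24 with 3α-THP, P4 and F. CCDC66, a satellite and microtubule protein, had 0.28, -0.13 and 0.26.

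CCDC82, whose role is little known, read 6.63, 7.10 and 7.12 on the 3α-THP arrays, 6.31, 6.33 and 6.80 on the P4 arrays, 6.57, 6.74 and 6.75 on the F arrays, and 6.05, 6.77 and 6.05 on the V arrays. V replicate 2 lay above 3α-THP replicate 1, so that the groups overlapped. The rise with 3α-THP was 0.66 (SE 0.20, 95% interval 0.23 to 1.09, limma, adjusted p = 0.485). It was short of the fold on leaving out 3α-THP replicate 3 (0.58), V replicate 1 (0.54) or V replicate 3 (0.54). A second, dimmer cluster of CCDC82 had a log2 fold change of 0.14 with 3α-THP, 0.12 with P4 and 0.23 with F, so the clusters of this gene disagreed in size.

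**Figure D2:**
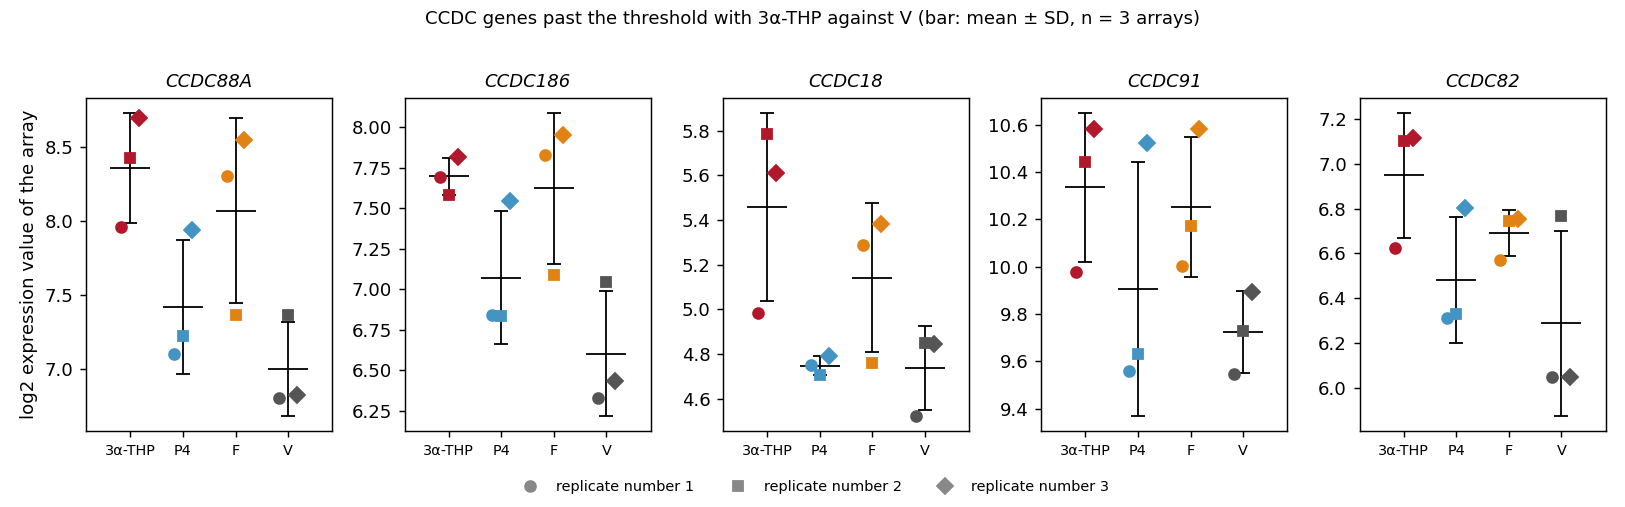
Log2 expression value of each array (vertical axis, 1 panel per gene with its own range) for 3α-THP, P4, F and V (horizontal axis), with the marker giving the replicate number and the bar the mean ± SD of 3 arrays. In CCDC88A the 3α-THP arrays sit between 7.96 and 8.69, above the V arrays at 6.80 to 7.36, and replicate number 2 is the highest V array and the lowest F array.

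In the remaining role groups no gene passed the threshold with any steroid. The 7 genes of motile cilia and the sperm flagellum, among them CCDC39 and CCDC40, which set the repeat length of the axoneme in green algae and are needed for motile cilia in man, ran from -0.10 to 0.20 with 3α-THP. The 2 mitochondrial genes, CCDC51, a subunit of the mitochondrial ATP-sensitive potassium channel, and CCDC90B, had 0.14 and -0.10. The 5 genes of the nucleus, nucleolus and ribosome, with CCDC124, a ribosome-binding protein, at -0.10, ran from -0.11 to 0.03. The 4 secreted proteins ran from -0.04 to 0.03, with CCDC134 at -0.04. Of the 71 genes in none of these groups, CCDC82 rose with 3α-THP. None of the groups held a gene that fell.

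Small differences without overlap of the arrays were found in a few other genes. CCDC89 read 4.34, 4.24 and 4.48 on the 3α-THP arrays, 4.38, 4.48 and 4.30 on the P4 arrays, 4.27, 4.26 and 4.26 on the F arrays, and 4.17, 4.01 and 4.06 on the V arrays. It was above V with all 3 steroids, by 0.27, 0.31 and 0.18, and had the smallest p of the 113 genes with P4 (unadjusted p = 0.00335 in limma). CCDC184 went the other way, with 5.77, 5.80 and 5.63 on the 3α-THP arrays, 5.74, 5.77 and 5.78 on the P4 arrays, 5.76, 5.65 and 5.77 on the F arrays, and 5.92, 5.85 and 5.95 on the V arrays. It was below V with all 3 steroids, by log2 fold changes of -0.17, -0.14 and -0.18. None of these differences reached a fold of 1.5. Of the 6 genes with every 3α-THP array below V, the lowest after CCDC184 were CCDC85B (-0.17), a repressor of transcription, and its relative CCDC85A (-0.15), which stood at -0.16 and -0.17 with P4. CCDC154 (0.26) and CCDC175 (0.23) lay above V with P4 and CCDC171 (-0.20) below it. With F the lowest without overlap were CCDC125 and CCDC134 (both -0.19). A second, dimmer cluster of CCDC125 (mean 5.66) had -0.11 with F, and there the F and V arrays overlapped.

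**Figure D3:**
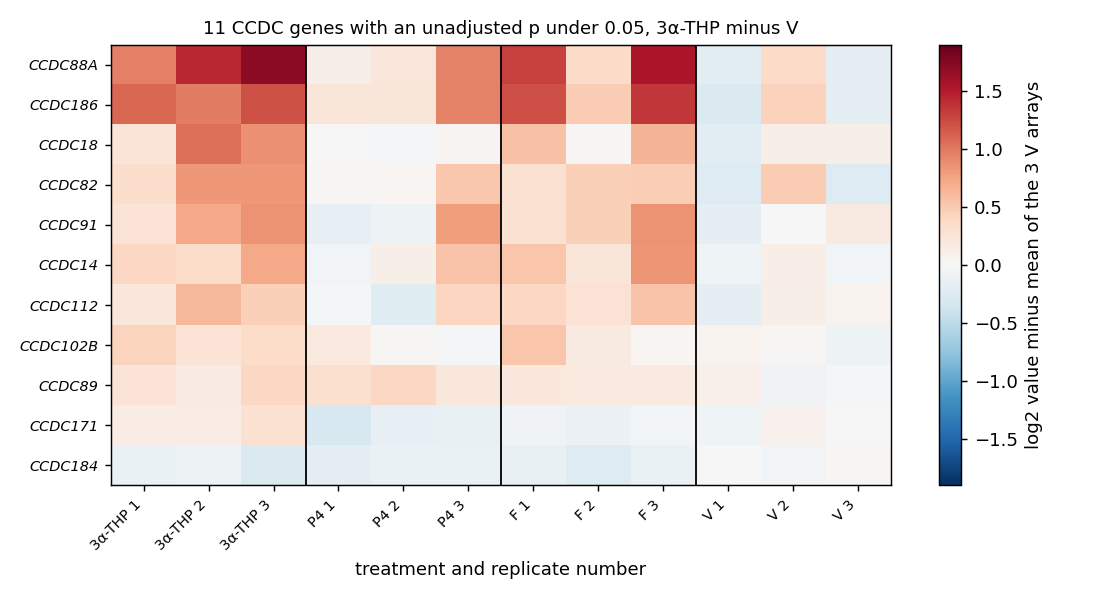
Log2 value minus the mean of the 3 V arrays (colour) for the 11 CCDC genes with an unadjusted p under 0.05 between 3α-THP and V (rows, from the largest rise down), on the 12 arrays (columns, by treatment and replicate number). F replicates 1 and 3 and P4 replicate 3 are redder than the other arrays of their treatment in CCDC88A and CCDC186.

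3α-THP and P4 were given at the same dose and for the same time. Here 3 CCDC genes were higher with 3α-THP than with P4 (2.65%) and 0 were lower, beside 0.250% of all clusters past the threshold in either direction and 0.222% higher. They were CCDC88A (0.94, 95% interval 0.29 to 1.60), CCDC18 (0.71, 0.29 to 1.14) and CCDC186 (0.62, 0.09 to 1.16), and the adjusted p in limma was 0.999 for each. In all 3 the 3α-THP arrays lay above the P4 arrays, though P4 replicate 3 came just under the lowest 3α-THP array in CCDC88A and CCDC186. The count ran from 2 to 5 with an array left out. CCDC186 was no longer called on leaving out P4 replicate 1, P4 replicate 2, 3α-THP replicate 1 or 3α-THP replicate 3, nor in the one-way analysis of variance (unadjusted p = 0.0725 over all clusters), and CCDC18 not on leaving out 3α-THP replicate 2, while the count was 5 on leaving out P4 replicate 3 or 3α-THP replicate 1. CCDC91 differed between these steroids by 0.43 (95% interval -0.09 to 0.95) and CCDC82 by 0.47 (0.04 to 0.90), short of the threshold. At an unadjusted p under 0.05 there were 9 genes, beside 3.96% of all clusters. CCDC171 had the smallest p, with 5.06, 5.06 and 5.20 on the 3α-THP arrays and 4.61, 4.76 and 4.77 on the P4 arrays (log2 difference 0.39, unadjusted p = 0.000363 in limma). In 6 genes every 3α-THP array lay above every P4 array (3.13% of all clusters), and in 5 every one lay below (5.10%), with CCDC60 (-0.25), CCDC24 (-0.19) and CCDC116 (-0.18) the lowest.

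F was given at 100 nM and the other steroids at 10 nM, so differences from F are differences at unlike doses. Between 3α-THP and F 0 genes passed the threshold in limma and in the one-way analysis of variance, beside 0.0566% of all clusters, and 2 had an unadjusted p under 0.05 (2.29% of all clusters). These were CCDC171 (0.27) and CCDC51 (0.25). CCDC88A differed by 0.29 (95% interval -0.36 to 0.94), CCDC186 by 0.07 (-0.46 to 0.61), CCDC18 by 0.32 (-0.11 to 0.74), CCDC91 by 0.08 (-0.43 to 0.60) and CCDC82 by 0.26 (-0.17 to 0.69). Every one of these intervals reached past a fold of 1.5. In 4 genes (3.54%) every 3α-THP array lay above every F array, beside 2.92% of all clusters. In 3 (2.65%) every one lay below, beside 3.68%, so both shares were near those of all clusters. Among them CCDC150 was higher with 3α-THP by 0.20, and CCDC81 (-0.18), CCDC33 (-0.12) and CCDC90B (-0.11) were lower.

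Between P4 and F 0 genes passed the threshold in limma or in the one-way analysis of variance, beside 0.0519% of all clusters, and 6 had an unadjusted p under 0.05 (2.87% of all clusters). CCDC88A was lower with P4 by -0.65 (95% interval -1.31 to 0.00, unadjusted p = 0.0513 in limma), and passed the threshold with the replicate number as a block (unadjusted p = 0.0262, adjusted p = 0.864 in limma). The count was 3 on leaving out F replicate 2 or P4 replicate 3, and 1 on leaving out 3α-THP replicate 1 or V replicate 2. CCDC186 differed by -0.55 (95% interval -1.09 to -0.01), CCDC18 by -0.39 and CCDC91 by -0.35. In 4 genes (3.54%) every P4 array lay above every F array, beside 4.75% of all clusters. In another 4 (3.54%) every one lay below, beside 3.32%, so both shares were near those of all clusters. Among them CCDC66 (-0.39), CCDC196 (-0.30) and CCDC127 (-0.18) were lower with P4 than with F, and CCDC182 (0.30), CCDC134 (0.24) and CCDC24 (0.17) were higher.

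**Figure D4:**
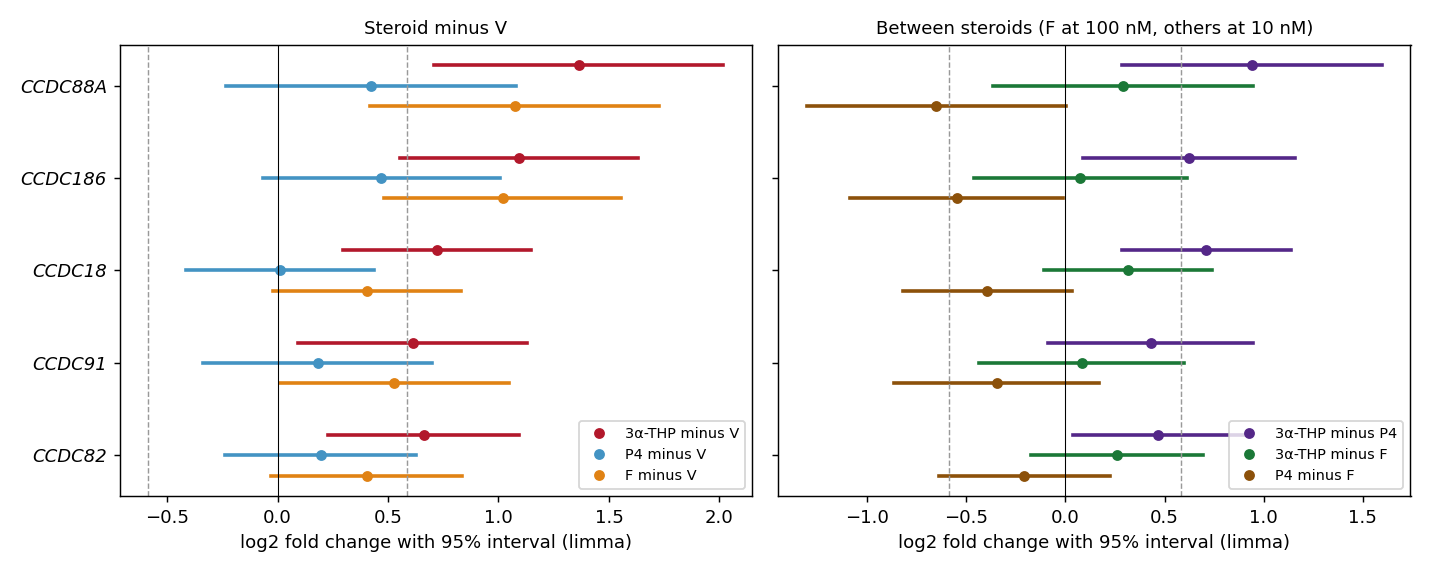
Log2 fold change with its 95% interval from limma (horizontal axis) of CCDC88A, CCDC186, CCDC18, CCDC91 and CCDC82 (vertical axis), for the 3 steroids against V (left) and between the steroids (right), with dashed lines at a fold of 1.5. The order of the means is 3α-THP, F, P4 and V in each gene, and the intervals of 3α-THP minus F and of P4 minus V hold 0 in all 5. The genes were picked for 3α-THP over V, which favours the ends of this order.

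In each of the 5 genes the mean over all arrays was highest with 3α-THP, then F, then P4, and lowest with V. The 5 were picked for their rise with 3α-THP over V, so a high 3α-THP mean and a low V mean follow from the choice. With the number 2 arrays left out, 3α-THP minus F turned to -0.10 in CCDC88A, -0.14 in CCDC186 and -0.039 in CCDC18. P4 minus V turned to -0.019 in CCDC18 with quantile normalization and to -0.13 in CCDC91 on leaving out P4 replicate 3. For CCDC88A the means were 8.36 ± 0.37 with 3α-THP, 7.42 ± 0.45 with P4, 8.07 ± 0.62 with F and 7.00 ± 0.32 with V (SD, n = 3 each). For CCDC186 they were 7.70 ± 0.12, 7.07 ± 0.41, 7.62 ± 0.47 and 6.60 ± 0.39 with 3α-THP, P4, F and V. Of the neighbours in this order, 3α-THP and F did not differ beyond their error in any of the 5, nor did P4 and V. P4 and F differed at an unadjusted p under 0.05 in CCDC186 alone, and with the replicate number as a block also in CCDC88A (0.0262), CCDC18 and CCDC91 (limma).

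Each treatment has arrays numbered 1, 2 and 3 in the labels, and the number moved with the values. Number 2 gave the highest V value and the lowest F value in CCDC88A, CCDC186 and CCDC14, and number 3 the highest P4 value in all 5 genes. With the number 2 arrays left out, the genes past the threshold were 6 with 3α-THP, where CCDC14 and CCDC110 were added and CCDC91 was lost, and 6 with F, with CCDC14, CCDC18, CCDC82 and CCDC110 added to CCDC88A and CCDC186 and CCDC186 at an adjusted p of 0.0396 in limma. They were then 2 with P4 (CCDC88A and CCDC186), and CCDC88A alone between 3α-THP and P4. What the number stands for beyond a biological replicate is not given in the labels, and its part in the differences was not tested.

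Over the 12 arrays, the CCDC genes most like CCDC88A were CCDC186 (Pearson's r 0.961), CCDC14 (0.934) and CCDC18 (0.874). The genes most like CCDC91 were CCDC112 (0.911), CCDC14 (0.859) and CCDC88A (0.828), and those most like CCDC18 were CCDC88A, CCDC112 (0.826) and CCDC186 (0.747). CCDC82 was most like CCDC88A (0.831), CCDC112 (0.820) and CCDC186 (0.796). CCDC186 was next most like CCDC14 (0.936) and CCDC112 (0.840). The median r of these 5 with the other CCDC genes lay between -0.05 and -0.11. These are descriptions over 12 arrays that share treatments and replicate numbers, and several of the genes were named for their differences between the same treatments.

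Many CCDC genes have since been given other names, and 69 such genes were measured. Of these, CEP112 (formerly CCDC46), a centrosomal protein, rose with 3α-THP and with F (1.45% of the 69 in each), beside 0.627% and 0.382% of all clusters that rose. It read 6.73, 6.45 and 6.60 on the 3α-THP arrays, 6.28, 6.14 and 6.62 on the P4 arrays, 6.83, 6.37 and 6.76 on the F arrays, and 6.05, 6.01 and 5.96 on the V arrays. All 9 steroid arrays lay above the V arrays, and the log2 fold changes were 0.59 with 3α-THP, 0.34 with P4 and 0.65 with F (limma, adjusted p = 0.381, 1.00 and 0.833). With 3α-THP it was just past the fold, and short of it on leaving out 3α-THP replicate 1 (0.52), 3α-THP replicate 3 (0.58) or V replicate 3 (0.56) and with the trend on gene span removed (0.56). With F it was short of it on leaving out F replicate 1 (0.56). The other 68 did not pass the threshold in any comparison with V.

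The fold changes were also set against the length of the genes. By the span of the gene in RefSeq (GRCh38.p14), CCDC88A covers 132 kb, CCDC186 53.4 kb, CCDC18 98.8 kb, CCDC91 359.7 kb and CCDC82 37.1 kb, beside a median of 31.5 kb in the 113 genes. Across the 113 genes, which are not independent replicates, the log10 of the span and the log2 fold change had a Pearson's r of 0.317 with 3α-THP, 0.052 with P4 and 0.282 with F. Across 19434 clusters with 1 gene it was 0.167, 0.061 and 0.210. With the trend on span removed over all clusters, the same 5 CCDC genes passed the threshold with 3α-THP and the same 2 with F.

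**Figure D5:**
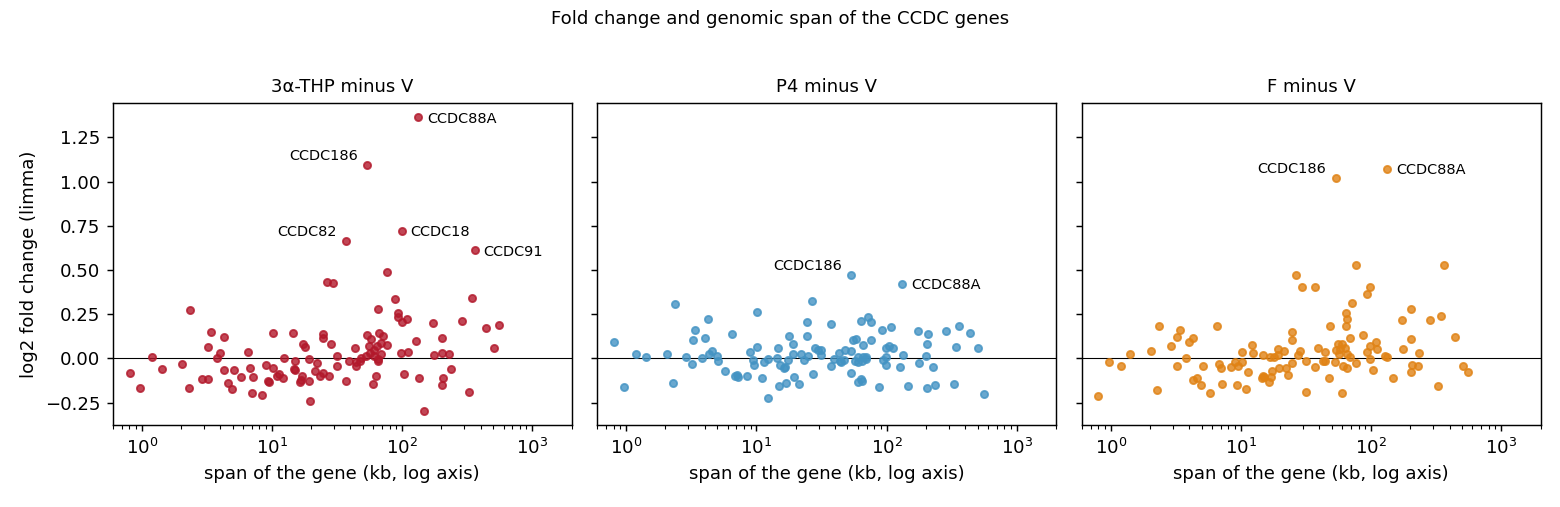
Log2 fold change against V (vertical axis) and span of the gene in kb (horizontal axis, logarithmic) of the 113 CCDC genes with 3α-THP, P4 and F. The genes that rose with 3α-THP span 37.1 kb to 359.7 kb, all above the median of 31.5 kb.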

How the data were processed

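Total RNA of U87 cells from 4 treatments, with 3 biological replicates each, was hybridised to 12 Affymetrix Human Gene 1.0 ST arrays. The authors deposited log2 values per transcript cluster, made with Affymetrix Expression Console 1.4 according to the submitters' processing notes. The methods name quantile normalization and also RMA, and the deposited table does not say which was used. The values run from 1.25 to 14.1. Of 33297 clusters, 12083 have no gene name here and were not tested, and 703 of the 21214 tested ones have values equal to another's (no CCDC gene among them). The genome build behind the platform's names is not given in the sources used here. The treatment means were estimated from all 12 arrays at once in R 4.3.3. limma 3.58.1 shrank the variance of each cluster towards a common value with a weight of 4.73 prior degrees of freedom. The fit was tested on simulated data with independent noise on each array, which lacks the correlation of same-numbered arrays given below. The number of arrays limits the precision.

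Genes named were CCDC88A, CCDC186, CCDC18 and CCDC91, every member past the threshold, the 3 largest differences each way without overlap of the arrays, and in each role group the member with the smallest p with 3α-THP. Others, such as CCDC102B, CCDC110 and the remaining girdin and vesicle genes, were named after their values were seen. The members and lists were chosen with earlier results of these data known. Same-numbered arrays correlated in their deviations from the treatment means (18 pairs, 0.132 to 0.631, against a median of -0.245 in 36 pairs of unlike number). The numbers were therefore taken to pair the arrays. The main fit stayed unpaired, as in the study's methods, so its SE, intervals and p do not use the pairing. A value with the replicate block is given where it changed a call. With the block, the lowest adjusted p of a CCDC gene in limma was 0.0731 with 3α-THP against V and 0.216 with F against V. Between 3α-THP and P4 it was 0.424. Motifs were searched by exact match on both strands.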

Additional observations from a re-analysis of the deposited data

How the results depend on the processing

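The counts of CCDC genes past the threshold were recomputed with a replicate block, the one-way analysis of variance of the methods, the 2 treatments alone, quantile normalization, clusters with a mean under 5 left out (which keeps 75 of the 113 genes), array weights, the span trend removed, number 2 arrays left out, each array left out in turn, every cluster of a gene, and symbols not updated. For 3α-THP against V the count of 5 stayed within 1.5 times under every one of these but leaving out an array, where it ran from 3 to 5 (3 without 3α-THP replicate 3 and without V replicate 1). For P4 against V the count of 0 became 1 with array weights and 2 without the number 2 arrays, and 0 to 1 with an array left out. For F against V the 2 became 6 without the number 2 arrays, and 2 to 4 with an array left out. With array weights CCDC14 was also called with F (log2 fold change 0.60). Between 3α-THP and P4 the 3 became 1 without the number 2 arrays, and 2 to 5 with an array left out. CCDC186 was lost from the 3 in the one-way analysis of variance. Between P4 and F the 0 became 1 with the replicate block, 2 with array weights and 2 without the number 2 arrays, and 0 to 3 with an array left out. Between 3α-THP and F the count was 0 throughout. The replicate block changed no other call.

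Of the named genes, the log2 fold change of CCDC18 with P4 against V turned to -0.019 with quantile normalization, -0.032 with array weights, -0.011 without P4 replicate 3 and -0.099 without V replicate 1 (array-by-array range -0.099 to 0.066). That of CCDC91 was -0.13 without P4 replicate 3 (-0.13 to 0.35). Between 3α-THP and F, CCDC88A turned to -0.10, CCDC186 to -0.14 and CCDC18 to -0.039 without the number 2 arrays, and CCDC88A to -0.063 and CCDC186 to -0.19 without F replicate 2 (ranges -0.063 to 0.53 and -0.19 to 0.24). CCDC134 with 3α-THP was 0.0021 without 3α-THP replicate 2, at the upper end of -0.083 to 0.0021. None of these was past the threshold. CCDC186 between 3α-THP and P4 fell short of the threshold without P4 replicate 1 (0.51), P4 replicate 2 (0.50), 3α-THP replicate 1 (0.63, unadjusted p = 0.0509 in limma) or 3α-THP replicate 3 (0.56) and in the one-way analysis of variance (0.62, unadjusted p = 0.0725 over all clusters), and CCDC18 without 3α-THP replicate 2 (0.55). The adjusted p in limma was under 0.05 for CCDC88A and CCDC186 with 3α-THP under array weights (both 0.0474) and for CCDC186 with F without the number 2 arrays (0.0396). The causes were not tested. No CCDC gene was lost to a filter in the reported fit.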
